A study of Apis mellifera with 2 samples.

Results

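The 6 genes described here are those coding sequences of the honey bee mitochondrial genome that do not belong to respiratory complex I. They are COX1, COX2 and COX3 (subunits of cytochrome c oxidase), CYTB (cytochrome b), and ATP6 and ATP8 (subunits of ATP synthase). They were chosen by gene name and not by any measured value, though with earlier results of these data known. They make up 6 of the 13 mitochondrial coding sequences and 6 of the 9935 genes measured. The series set out to map the surface molecules of hemocytes, the cells of insect blood, in Apis mellifera carnica. RNA came from hemocytes of adults less than 1 day old, which had emerged from capped brood incubated at 34 °C and were gathered every 24 h, and from worker larvae 8 days old in the fifth instar. Each stage had 1 library, made from the cells of 320 µL of hemolymph. The number of insects per pool was not stated in the labels. Libraries were made from RNA caught by its poly(A) tail and read in pairs of 150 bases, and whether counting used strand is not known here, so RNA from opposite strands of the mitochondrial genome cannot be told apart. Estimated counts summed to 16880780 for adult and 17657461 for larval hemocytes.

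The mitochondrial genome of animals encodes a small set of membrane subunits of the respiratory chain and of ATP synthase, while the nucleus encodes all the others. Cytochrome b forms the core of complex III, which passes electrons from ubiquinol to cytochrome c. COX1, COX2 and COX3 form the core of complex IV, where those electrons reduce oxygen, and COX1 and COX2 carry its metal centres. The proton gradient that results is used by ATP synthase, in whose membrane part ATP6 lines the proton path and ATP8 helps to hold the stator. Mitochondrial genes are transcribed together into long precursors, from which messengers are cut and given short poly(A) tails.

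Because each stage has 1 library, the differences have no replicate check. No p-value or SD can be given, and every difference below is one between these 2 libraries. Intervals are 95% intervals, exact unless stated otherwise, that cover counting error only, and PCR copies of a molecule count as separate reads. Of the 6 hemocyte markers looked for, 1, PPO, the prophenoloxidase of the melanization response, carries its symbol in the gene table. It stood at 14041 CPM in adult hemocytes and 28019 CPM in larval hemocytes (scaled counts per 1000000, as defined below). In bulk RNA, fewer cells of a type and less RNA per cell cannot be told apart.

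The order of the 6 genes by level was taken per length, from the authors' TPM (transcripts per 1000000), which divides by the effective length, the number of positions at which a fragment can start. COX1 was the most abundant of the 6, and its coding sequence ranked 5th in adult hemocytes and 1st in larval hemocytes among all 23471 coding sequences. COX1 stood at 7292 TPM in adult hemocytes (counting interval 7263 to 7322), against 17508 TPM in larval hemocytes (17467 to 17550). COX2 stood at 2767 TPM in adult hemocytes (2735 to 2799), against 5418 TPM in larval hemocytes (5376 to 5459). CYTB stood at 2111 TPM in adult hemocytes (2092 to 2130), against 6301 TPM in larval hemocytes (6270 to 6331). These 3 genes were all among the 59 most abundant coding sequences of the adult library and the 16 most abundant of the larval library. COX3, ATP6 and ATP8 formed a group far below them, with none over 214 TPM.

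COX3 stood at 79.7 TPM in adult hemocytes (74.9 to 84.7), against 214 TPM in larval hemocytes (207 to 222). ATP6 stood at 31.9 TPM in adult hemocytes (28.6 to 35.5), against 71.8 TPM in larval hemocytes (67.2 to 76.8). ATP8 stood at 24.0 TPM in adult hemocytes (9.63 to 49.4), against 13.1 TPM in larval hemocytes (4.25 to 30.6). The order in adult hemocytes was thus COX1, COX2, CYTB, COX3, ATP6 and ATP8, and in larval hemocytes COX1, CYTB, COX2, COX3, ATP6 and ATP8. Neighbours in either order differed beyond counting error, except ATP6 and ATP8 in adult hemocytes, whose intervals overlapped. COX2 and CYTB changed places: per TPM, COX2 was 1.31 times CYTB in adult hemocytes and 0.860 times CYTB in larval hemocytes. Counts per kilobase of coding length gave the same orders, with COX2 at 1.04 times CYTB in adult hemocytes and 0.665 times in larval hemocytes.

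**Figure D1:**
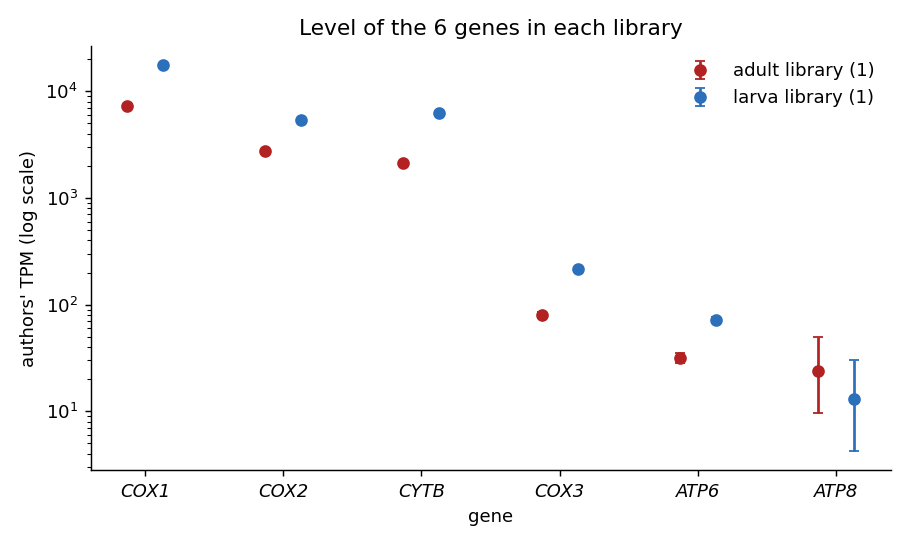
Authors' TPM on a log axis for each of the 6 genes in adult hemocytes (red) and larval hemocytes (blue), with 1 library each; bars are exact 95% Poisson intervals and cover counting error only. COX1, COX2 and CYTB lie at 2111 TPM or more in both libraries, while COX3, ATP6 and ATP8 lie at 214 TPM or below.

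Subunits of a single enzyme thus lay far apart. COX1 and COX3 are both core subunits of complex IV, yet per TPM COX1 exceeded COX3 91.5-fold in adult hemocytes and 81.7-fold in larval hemocytes. Per kilobase of coding length the gap was 115-fold in adult hemocytes and 105-fold in larval hemocytes. COX1 exceeded ATP6 229-fold per TPM in adult hemocytes and 244-fold in larval hemocytes.

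Genome order, read from the numbering of the coding sequences in the files, is ND2, COX1, COX2, ATP8, ATP6, COX3, ND3, ND5, ND4, ND4L, ND6, CYTB and ND1. The genes with an ND name encode subunits of complex I, which takes electrons from NADH. COX1, COX2, ATP8, ATP6 and COX3 follow one another, and the wide step in level falls inside this run. COX1 had 7926 scaled CPM per kilobase of coding length in adult hemocytes and 27871 in larval hemocytes. Its neighbour ND2 had 47.1 in adult hemocytes and 249 in larval hemocytes. On the other side of COX2, which had 2205 in adult hemocytes and 6145 in larval hemocytes, ATP8 had 2.31 in adult hemocytes and 2.01 in larval hemocytes. By TPM, which divides by effective length, ATP8 stood at 24.0 in adult hemocytes, above ND3 (18.4) and ND4L (16.6). ATP6 had 25.5 in adult hemocytes and 81.8 in larval hemocytes, and COX3 had 68.8 in adult hemocytes and 266 in larval hemocytes. Past the short ATP8, the level per kilobase was 86.5-fold higher at COX2 than at ATP6 in adult hemocytes and 75.2-fold higher in larval hemocytes. CYTB stood apart from its neighbours in a like way, 115-fold above ND6 in adult hemocytes and 198-fold above it in larval hemocytes, and 11.9-fold above ND1 in adult hemocytes and 12.2-fold above it in larval hemocytes. By TPM the gap to ND6 was smaller: CYTB stood at 2111 TPM against 29.5 in adult hemocytes, and at 6301 against 54.0 in larval hemocytes. To ND1 it was 11.0-fold in adult hemocytes and 11.2-fold in larval hemocytes.

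**Figure D2:**
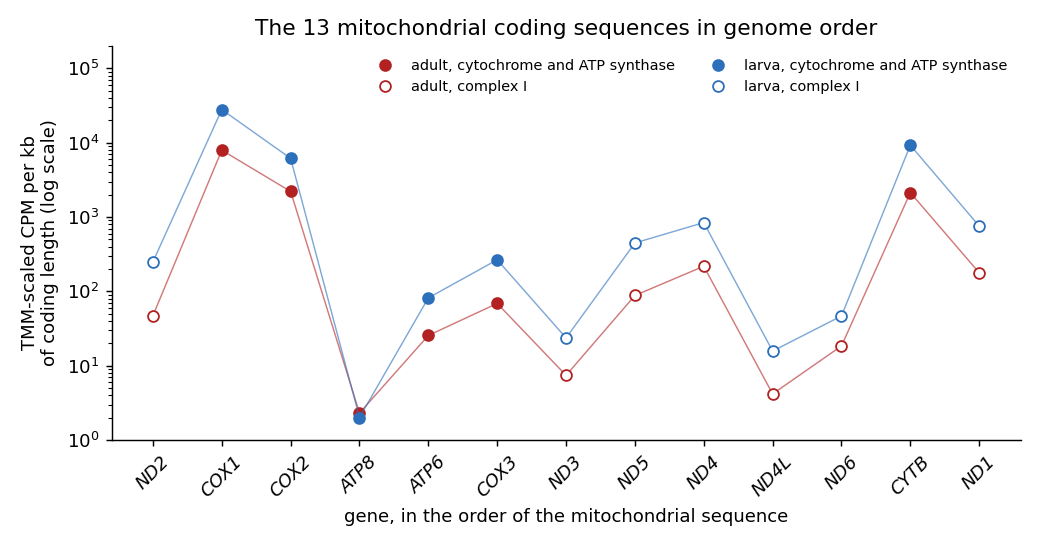
TMM-scaled CPM per kilobase of coding length, on a log axis, for the 13 mitochondrial coding sequences in genome order, in adult hemocytes (red) and larval hemocytes (blue); filled points are the cytochrome and ATP synthase genes, open points the complex I genes. COX1, COX2 and CYTB are the peaks of both profiles, and ATP8 is the lowest point, at 2.31 in adult hemocytes and 2.01 in larval hemocytes. This place rests on the use of coding length. By TPM, ATP8 in adult hemocytes (24.0, counting interval 9.63 to 49.4) lay above ND3 (18.4) and ND4L (16.6).

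The next question was how far each gene differed between the stages. Counts were scaled with TMM factors and given as CPM, and folds of adult over larva were taken as log2 values with a prior of 0.5 counts. A difference met the size rule when fold and whole interval lay at 4-fold or beyond and the higher level reached 10 CPM. All 6 genes passed the filter of 10 counts over both libraries, ATP8 with 12. COX1, COX2, COX3, CYTB and ATP6 were lower in adult hemocytes beyond counting error, and CYTB alone met the size rule. No gene of the 6 was higher in adult hemocytes beyond counting error, and 5 would be lower at a 2-fold rule. Among all 8798 genes compared, 40.9% were lower in adult hemocytes beyond counting error and 2.72% met the size rule as lower there. In the other direction, 41.8% were higher in adult hemocytes beyond counting error and 3.14% met the size rule as higher. At the 2-fold rule 10.6% were lower in adult hemocytes.

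Among the subunits of complex IV, COX1 had 12373 CPM in adult hemocytes, against 43506 CPM in larval hemocytes. It was 3.52-fold lower in adult hemocytes (interval 3.50 to 3.53), a log2 fold of -1.81. COX2 had 1495 CPM in adult hemocytes, against 4167 CPM in larval hemocytes, and was 2.79-fold lower in adult hemocytes (2.75 to 2.83), a log2 fold of -1.48. COX3 had 53.7 CPM in adult hemocytes, against 207 CPM in larval hemocytes, and was 3.86-fold lower in adult hemocytes (3.60 to 4.15), a log2 fold of -1.95. Of these 3 subunits, COX3 lay just outside the size rule, and COX2 had the smallest difference.

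CYTB, the complex III subunit, had 2451 CPM in adult hemocytes, against 10648 CPM in larval hemocytes. It was 4.34-fold lower in adult hemocytes (4.30 to 4.39), a log2 fold of -2.12, the widest difference of the 6 genes. It lies just inside the size rule, which it met with TMM and with DESeq2 size factors and missed with plain totals, the authors' TPM or totals without the mitochondrial genes.

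Of the ATP synthase subunits, ATP6 had 331 counts (17.4 CPM) in adult hemocytes, against 871 counts (55.7 CPM) in larval hemocytes. It was 3.20-fold lower in adult hemocytes (2.82 to 3.65), a log2 fold of -1.68. ATP8 had 7 counts (0.367 CPM) in adult hemocytes, against 5 counts (0.320 CPM) in larval hemocytes. Its adult level came to 115% of the larval one, with an interval of 31.4% to 459%, so no difference in either direction was detectable at this depth. For ATP6, its neighbour on the genome, the adult level came to 31.2% of the larval one (27.4% to 35.5%), and the intervals of the pair overlap.

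The size of these folds depends on the scaling of the libraries, and their direction did not for the 5 genes that were lower in adult hemocytes. The median log2 fold of all 8798 genes was 0.02 with TMM, 0.37 with plain totals, 0.0039 with DESeq2 size factors, 0.32 with totals without the mitochondrial genes and 0.55 with the authors' TPM. Taken relative to that median, CYTB stood at -2.14 with TMM and -2.12 with TPM, COX1 at -1.84 with TMM and -1.81 with TPM, and COX2 at -1.50 with TMM and -1.52 with TPM. COX3 stood at -1.97 on both, and ATP6 at -1.70 with TMM and -1.72 with TPM. The 6 genes had a median log2 fold of -1.75, or -1.81 without ATP8, and the interquartile range over all genes ran between -0.67 and 0.75.

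**Figure D3:**
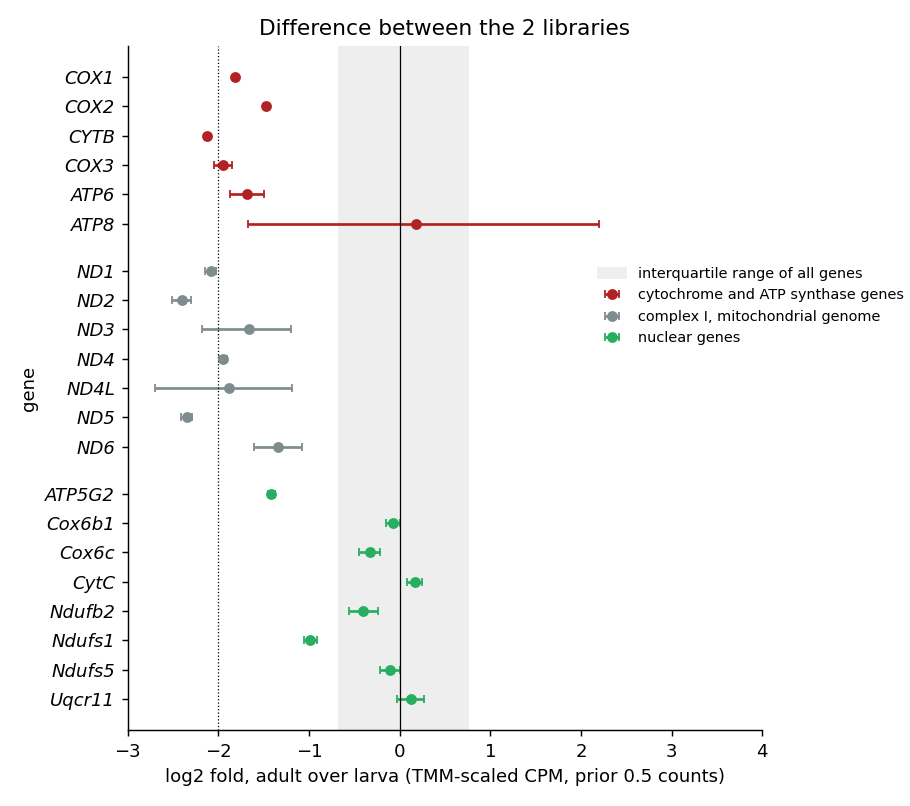
Log2 fold of adult over larva with exact 95% counting intervals for the 6 genes (red), the 7 complex I genes of the mitochondrial genome (grey) and 8 nuclear genes of oxidative phosphorylation (green); the grey band is the interquartile range of all 8798 genes and the dotted line marks 4-fold lower in adult hemocytes. CYTB at -2.12 lies past the dotted line, ATP8 is the widest interval, and 7 of the 8 nuclear genes lie right of -1.

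Most of the abundant genes were lower in adult hemocytes. Among the 105 genes with a mean of at least 1000 CPM over both libraries, the median log2 fold was -0.97, and 76 had a log2 fold below 0. In this group 10 genes (9.52%) met the size rule as lower in adult hemocytes. Ordered from the most lowered in adult hemocytes, CYTB was 9th, COX1 19th and COX2 30th of the 105. COX3 was 103rd of the 1996 genes with a mean of at least 100 CPM, and ATP6 392nd of the 6773 genes with a mean of at least 10 CPM.

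**Figure D4:**
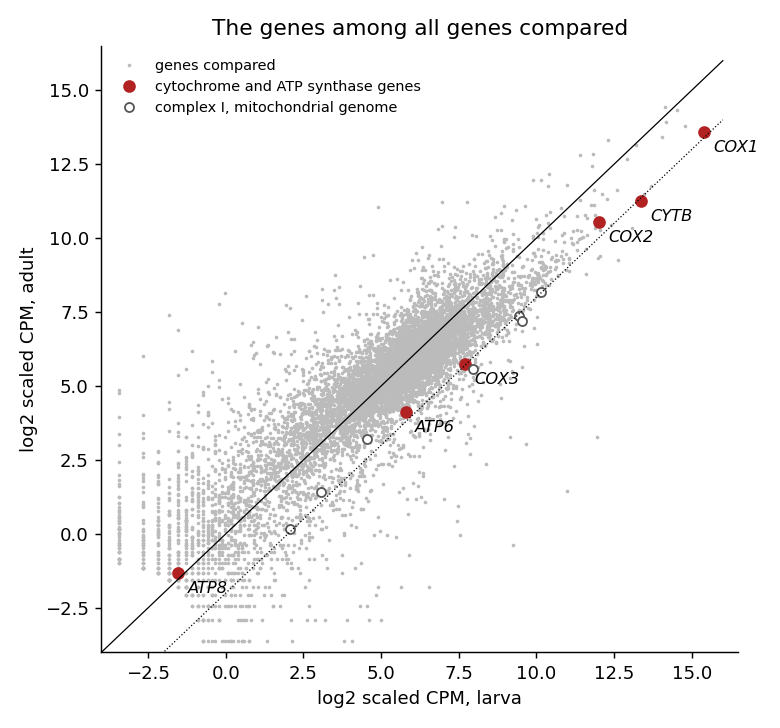
Log2 scaled CPM in adult hemocytes (vertical axis) against larval hemocytes (horizontal axis) for the 8798 genes compared (grey points); the solid line marks equal levels and the dotted line 4-fold lower in adult hemocytes, filled red points are the 6 genes and open points the complex I genes. COX1, COX2, CYTB, COX3 and ATP6 lie below the solid line over the whole range of abundance, with CYTB just past the dotted line, and ATP8 lies near the solid line at 0.367 CPM in adult hemocytes and 0.320 CPM in larval hemocytes.

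Some other genes had levels in both libraries close to those of a gene described here. Closeness was the distance in log2 scaled CPM over the 2 libraries, so it rests on 2 values per gene. The gene nearest to CYTB was EF1a-F2, a translation elongation factor, at 2524 CPM in adult hemocytes and 9725 CPM in larval hemocytes, a distance of 0.14. The gene nearest to COX1 was PPO, at a distance of 0.66. Among genes with a symbol, Hsp90, a chaperone, was nearest to COX2 (0.90), Tpx-3, a thioredoxin peroxidase, to COX3 (0.31) and UHRF1 to ATP6 (0.46). Among all genes, LOC410486 was nearest to COX2 (0.25), LOC725362 to COX3 (0.03) and LOC113218548 to ATP6 (0.01). For ATP8, LOC100578935 had the same counts in both libraries, and Mrjp9, a major royal jelly protein gene, was the nearest with a symbol (0.18).

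Ratios between genes of the same library do not depend on how libraries are scaled, and they showed whether the 6 genes differed by the same factor. Beyond counting error, they did not. COX2 came to 12.1% of COX1 counts in adult hemocytes and 9.58% in larval hemocytes, a ratio 1.26 times as high in adult hemocytes (1.24 to 1.28). CYTB came to 19.8% of COX1 counts in adult hemocytes and 24.5% in larval hemocytes, 0.809 times as high (0.800 to 0.819). COX3 came to 0.434% of COX1 counts in adult hemocytes and 0.477% in larval hemocytes, 0.911 times as high (0.848 to 0.977). For ATP6, at 0.140% of COX1 counts in adult hemocytes and 0.128% in larval hemocytes, the ratio was 1.10 (0.964 to 1.25), an interval that includes 1. ATP8 came to 0.00297% of COX1 counts in adult hemocytes and 0.000735% in larval hemocytes, a ratio of 4.04 with a wide interval (1.10 to 16.2). Relative to COX1 the better counted genes thus shifted by factors of 0.809 to 1.26, while the genes themselves were 2.79-fold to 4.34-fold lower in adult hemocytes.

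The widest shift among the 10 pairs without ATP8 was that of CYTB to COX2. CYTB had 164% of the counts of COX2 in adult hemocytes and 256% in larval hemocytes, 0.641 times as high in adult hemocytes (0.630 to 0.653). These are counts of sequences of unequal length: per TPM, CYTB came to 76.3% of COX2 in adult hemocytes and 116% in larval hemocytes. Of these 10 pairs, 9 had an interval that left out 1, and ATP6 to COX1 was the exception. Such intervals are common at this depth. Among all genes compared, 40.9% were lower and 41.8% higher in adult hemocytes beyond counting error. The share of such pairs among other genes was not counted, so 9 of 10 is not read as particular to these genes. The interval of ATP8 to ATP6 included 1 (0.997 to 14.8). These intervals hold no variation between insects or between preparations, so whether the shifts exceed such variation was not tested.

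**Figure D5:**
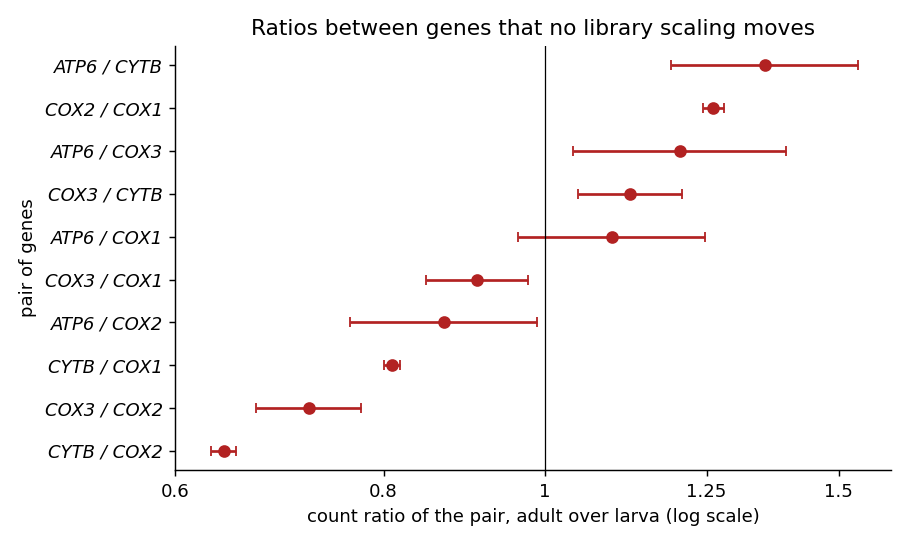
Count ratio of each pair of genes in adult hemocytes divided by the same ratio in larval hemocytes, on a log axis, with 95% counting intervals; the 10 pairs leave out ATP8, and the vertical line marks an equal ratio in both libraries. CYTB to COX2 is lowest at 0.641 and ATP6 to CYTB highest at 1.36 (1.19 to 1.54), and the interval of ATP6 to COX1 crosses the line.

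As a share of counts, which favour long sequences, the 6 genes held 1.85% of all estimated counts in adult hemocytes (1.84 to 1.86), against 5.19% in larval hemocytes (5.18 to 5.20). COX1 alone made up 75.5% of the counts of the 6 genes in adult hemocytes (75.3 to 75.6) and 74.3% in larval hemocytes (74.2 to 74.4). CYTB made up 15.0% in adult hemocytes (14.8 to 15.1) and 18.2% in larval hemocytes (18.1 to 18.3). COX2 made up 9.12% in adult hemocytes (9.02 to 9.22) and 7.11% in larval hemocytes (7.06 to 7.16). The other 3 genes held little: COX3 0.328% in adult hemocytes and 0.354% in larval hemocytes, and ATP6 0.106% in adult hemocytes and 0.0950% in larval hemocytes. Per TPM, which evens out length, COX1 made up 59.3% of the 6 genes in both libraries.

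Set against the 7 complex I genes of the same genome, the 6 genes held 96.1% of mitochondrial counts in adult hemocytes (96.0 to 96.2), against 95.4% in larval hemocytes (95.3 to 95.4). Nearly all of this share came from COX1, COX2 and CYTB, which held 95.7% of mitochondrial counts in adult hemocytes and 94.9% in larval hemocytes. Summed, the 6 genes were 3.57-fold lower in adult hemocytes (3.56 to 3.59) and the complex I genes 4.31-fold lower (4.22 to 4.39), intervals that do not overlap. The difference between the groups holds for the sums and not gene by gene. CYTB, 4.34-fold lower in adult hemocytes, differed more than ND4 (3.86-fold) and ND6 (2.53-fold) and less than ND2 (5.29-fold) and ND5 (5.09-fold), and its interval overlapped that of ND1 (4.24-fold, 4.08 to 4.42). All 7 complex I genes were lower in adult hemocytes beyond counting error, and 3 of them met the size rule. Among all genes compared these shares were 40.9% and 2.72%. Like CYTB, the 3 genes (ND1, ND2 and ND5) missed the size rule with the authors' TPM, at log2 folds of -1.55, -1.87 and -1.80.

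Most partners of these proteins are encoded in the nucleus. The list named 8 nuclear genes of oxidative phosphorylation by symbol, among them Ndufs1, Ndufb2 and Ndufs5, which belong to complex I. Many genes in the files carry only a locus number, and any subunit named so is missed. The 8 genes thus do not stand for all nuclear subunits. Of the 8, 4 were lower in adult hemocytes beyond counting error (Ndufs1 and Ndufb2 among the 4), 1 was higher and 0 met the size rule. Among all genes compared, 40.9% were lower in adult hemocytes beyond counting error and 41.8% were higher. The 8 genes had a median log2 fold of -0.22, which was above 0 with plain totals (0.13), with totals without the mitochondrial genes (0.08) and with TPM (0.18). In complex IV, Cox6b1 had 152 CPM in adult hemocytes and 159 CPM in larval hemocytes (log2 fold -0.07), and Cox6c had 60.8 CPM in adult hemocytes and 76.4 CPM in larval hemocytes (log2 fold -0.33). Cox6b1 had a log2 fold above 0 with those same 3 scalings and Cox6c with plain totals and TPM. CytC, the electron carrier cytochrome c, had 150 CPM in adult hemocytes, against 134 CPM in larval hemocytes (log2 fold 0.16), and Uqcr11, a small subunit of complex III, had 44.0 CPM in adult hemocytes, against 40.4 CPM in larval hemocytes (0.12). ATP5G2, which encodes the proton-carrying ring subunit of ATP synthase, had 381 CPM in adult hemocytes, against 1014 CPM in larval hemocytes. It was 2.66-fold lower in adult hemocytes (2.59 to 2.74), a log2 fold of -1.41. Of the complex I genes in the nucleus, Ndufs1 had a log2 fold of -0.98, Ndufb2 -0.40 and Ndufs5 -0.10, the last above 0 with the same 3 scalings as Cox6b1. Apart from Ndufs1 these coding sequences are short, between 156 bases for Uqcr11 and 429 bases for ATP5G2, so their levels were not set beside the mitochondrial ones per length.

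Counts of each of the 6 genes were then divided by those of a nuclear gene of the same complex, or of cytochrome c for CYTB, which again needs no scaling. For 9 of the 10 pairs this ratio was lower in adult hemocytes beyond counting error. These ratios largely restate the folds given above, as the median log2 fold of all genes compared was 0.02 with TMM. Whether other nuclear genes would give a like count was not tested, so the 9 are not particular to partners of the same complex. The pairs share genes and are not 10 separate results. Cox6b1 and Cox6c were each set against COX1, COX2 and COX3, and ATP5G2 against ATP6 and ATP8. COX1 had 81.6 counts per count of Cox6b1 in adult hemocytes, against 274 in larval hemocytes, a ratio 0.298 times as high in adult hemocytes (0.282 to 0.315). CYTB had 16.4 counts per count of CytC in adult hemocytes, against 79.6 in larval hemocytes, 0.205 times as high (0.194 to 0.218). The pair within ATP synthase was much closer to 1. ATP6 had 0.0457 counts per count of ATP5G2 in adult hemocytes, against 0.0549 in larval hemocytes, 0.831 times as high (0.728 to 0.948). ATP8 to ATP5G2 was the pair whose interval included 1 (0.837 to 12.2). All of these are ratios of counts of sequences of unequal length, so within a library they are not ratios of levels. Their size also differs by TPM, which divides by the effective length of each library. There the log2 folds were -1.26 for COX1 and 0.32 for Cox6b1, and -1.58 for CYTB and 0.55 for CytC.

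A few other genes of mitochondrial proteins, picked by symbol once the gene table was seen, had values of both signs. Ant, the ADP and ATP carrier of the inner membrane, had 601 CPM in adult hemocytes and 1600 CPM in larval hemocytes, a log2 fold of -1.41. IF-2mt, a mitochondrial translation initiation factor, had 179 CPM in adult hemocytes and 154 CPM in larval hemocytes, a log2 fold of 0.21. Pet117, an assembly factor of complex IV, had a log2 fold of -0.37, and Coq7, an enzyme of ubiquinone synthesis, one of -0.44, both above 0 with TPM.

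Coding length bears on how well each gene could be counted. Over the 13 mitochondrial genes, longer coding sequences tended to have lower log2 folds (Spearman rho -0.73). Whether length has a part in the folds or in the shifts between pairs was not tested. The coding sequences are 1561 bases long for COX1, 1152 for CYTB, 780 for COX3, 681 for ATP6, 678 for COX2 and 159 for ATP8. Among sequences over 1000 bases, the effective length was 265 bases shorter than the coding length in adult hemocytes and 282 bases shorter in larval hemocytes. ATP8 is shorter than that, and its effective length was 11.7 bases in adult hemocytes (7.36% of its coding length) and 12.6 bases in larval hemocytes (7.89%). A TPM made from so short an effective length moves widely with single counts. ATP6 and COX2 are nearly equal in length. ATP6 had 331 counts in adult hemocytes and 871 in larval hemocytes. COX2 had 28489 counts in adult hemocytes and 65186 in larval hemocytes. Of the 9 coding sequences between 150 and 170 bases, ATP8 among them, 8 had counts in adult hemocytes and 7 in larval hemocytes. The median count over all 9 was 9.19 in adult hemocytes (highest 838) and 9.94 in larval hemocytes (highest 788), against 7 for ATP8 in adult hemocytes and 5 in larval hemocytes. The counts of all 13 mitochondrial genes were whole numbers (within 0.001) in both libraries, as were 37.0% of coding sequences with counts in adult hemocytes and 37.8% in larval hemocytes. kallisto gives fractions where it divides read pairs between similar sequences.

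Markers of other cell types also differed between the libraries. Of the listed markers, the gene table names 6 of 7 for fat body, 4 of 8 for muscle and 1 of 3 for neurons. Of the 6 fat body genes, 5 were lower in adult hemocytes and met the size rule, against 2.72% of all genes compared. The fat body list summed to 151 CPM in adult hemocytes, against 6799 CPM in larval hemocytes. Vg, the yolk precursor, was the exception, at 120 CPM in adult hemocytes, against 0.320 CPM in larval hemocytes. The 4 muscle genes, troponins, summed to 25.2 CPM in adult hemocytes, against 39.2 CPM in larval hemocytes. Of the 4, 3 were lower in adult hemocytes beyond counting error (TpnCI was higher there with TPM), against 40.9% of all genes compared. Syt1, the neuronal marker, stood at 1094 CPM in adult hemocytes, against 244 CPM in larval hemocytes. No marker found was at 0 in either library, and the part of these cell types in the mitochondrial values was not tested.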

How the data were processed

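Per the submitters' processing notes the authors used kallisto, and they deposited estimated counts per RefSeq coding sequence; version, index, trimming, genome build and use of strand: not given in the sources used here. Deposited TPM add up to 1000000 per library, as the file headers and values show, and the deposited effective lengths were used as given. All 23471 coding sequences matched the RefSeq genes of Amel_HAv3.1, used for names and to find the mitochondrial genes. Estimated counts were summed to 9935 genes and rounded to whole numbers. TMM factors (edgeR 4.0.16, R 4.3.3) came to 1.13 (adult) and 0.886 (larva), from the 8798 genes with at least 10 counts over both. A count of 0 allows up to 3 counts, or 0.157 CPM in adult hemocytes and 0.192 CPM in larval hemocytes.

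Fold intervals are Clopper-Pearson intervals on how a gene's counts divide between the libraries, shares have exact binomial and TPM exact Poisson intervals. Ratios between genes have exact conditional intervals, or large-sample ones where both genes have over 20000 counts. The size rule was run on simulated counts that held counting error only. That run has no bearing on variation between insects or preparations. The 6 genes, the lists and the rule for named genes (all mitochondrial genes, the nuclear list, and the nearest genes in both libraries) were chosen with earlier results of these data known. Alternatives were other scalings (DESeq2 1.42.0 size factors among them), priors, filters and thresholds. Python 3.11.15 with scipy 1.17.1 and matplotlib 3.10.9 did the rest.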

Additional observations from a re-analysis of the deposited data

How the results depend on the processing

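No paired analysis was possible because each stage has 1 library, so leaving out a replicate was not possible either. The 5 genes other than ATP8 kept a log2 fold below 0 under every alternative run. With plain totals the log2 folds were -1.46 for COX1, -1.13 for COX2, -1.60 for COX3, -1.77 for CYTB and -1.33 for ATP6. With totals without the mitochondrial genes they were -1.52, -1.18, -1.65, -1.82 and -1.38 in that order of genes, and with the authors' TPM -1.26, -0.97, -1.43, -1.58 and -1.17. Smaller shifts left the counting interval for COX1 and CYTB with DESeq2 size factors (-1.83 and -2.14), and for COX1, COX2 and CYTB with TMM on coding sequences (-1.86, -1.53 and -2.17) and with a minimum of 100 counts (-1.79, -1.45 and -2.09). ATP8, with 12 counts, drops out of that last filter. The count of the 6 genes that passed the size rule as lower in adult hemocytes, 1 with TMM, was 0 with plain totals, with totals without the mitochondrial genes, with TPM and at 8-fold, and 5 at 2-fold. Over all genes, 276 were higher and 239 lower in adult hemocytes with TMM at 4-fold. The counts were 560 higher and 142 lower with TPM, 879 higher and 931 lower at 2-fold, and 120 higher and 86 lower at 8-fold. Plain totals gave 413 higher and 160 lower, so the share called as higher in adult hemocytes depends on the scaling. As a share of TPM the 6 genes held 1.23% in adult hemocytes and 2.95% in larval hemocytes, and of mitochondrial TPM 95.4% in adult hemocytes and 94.5% in larval hemocytes. The ratio of COX2 to COX1 was 1.23 with TPM, an alternative chosen after seeing the data. The order of the 6 genes was the same under each length used. The 12 counts of ATP8 leave a wide interval, and with 1 library per stage no spread between replicates is known for any of the genes.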
